A study of Gallus gallus with 6 samples.

Results

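Elastic fibre genes are the genes of the elastin core, of its microfibril scaffold and of the enzymes that cross-link it. The list held 10 genes: *ELN*, *FBN1*, *FBN2*, *FBLN1*, *FBLN2*, *FBLN5*, *LOX*, *LOXL1*, *LOXL3* and *LTBP1*. A gene was taken where a probe set of the array carried its symbol alone in the platform annotation. This gave 7 of the 10 genes, each with 1 probe set, among 11528 genes with a probe set of their own. No probe set was annotated to *FBN1*, *FBLN2* or *LOXL1*, and these 3 were not analysed here. The probe set of *LOXL3* was matched by symbol only, since no probe set of the annotation carried the RefSeq gene ID of *LOXL3*.

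Tropoelastin, the product of *ELN*, is secreted mainly by smooth muscle cells in the artery wall and is laid down on microfibrils built of fibrillins. Fibulins join elastin to the microfibrils and to cells, lysyl oxidases link the tropoelastin molecules into an insoluble polymer, and latent TGF-beta binding proteins tie the growth factor to the same scaffold. In large arteries these fibres form concentric lamellae that give the wall its recoil, whereas the wall of a muscular artery holds fewer of them, and the mammalian ductus arteriosus (DA) is known for sparse or interrupted lamellae near birth.

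Expression was measured in 3 arteries of Hypeco Nera chick embryos at internal pipping (IP), the stage at which the beak enters the air cell: the proximal DA, which is the part of the right-sided duct next to the pulmonary artery, the distal DA, which is the part next to the descending aorta, and the descending aorta. No treatment is labelled, and the aorta served as the comparison artery. Each tissue had 2 Affymetrix Chicken Gene 1.0 ST arrays, each made from 100 ng of total RNA from tissue pooled from several embryos, so single embryos and their sex were not resolved. Whether the paired arrays of a tissue stand for separate pools is not stated in the sources, so the p-values measure a spread that may be technical. Values are log2 intensities, and a difference of 1 means a 2-fold change in intensity. One limma fit covered the tissues and all 20804 probe sets, and a difference passed at a Benjamini-Hochberg adjusted p under 0.05. In pooled tissue, fewer cells of a type and less RNA per cell cannot be told apart.

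The medians of the 6 arrays lay between 6.61 and 6.66, which the authors' quantile normalization across arrays makes alike whatever the quality of the arrays. No array was a copy of another (at most 1.95% of values were equal between any pair). All 7 measured smooth muscle markers lay above the lower quartile of every tissue's arrays. Against the aorta, 6 of them were higher in the proximal and 7 in the distal DA. Of 9 endothelial markers, 6 and 4 were higher. By the same test, 4.58% of all genes were higher in the proximal and 1.30% in the distal DA. Lung epithelial markers (3 of 6) and melanocyte markers (4 of 5) also exceeded the aorta in the proximal DA, while 0 of either list did so in the distal DA by limma, with 0 also before adjustment at p under 0.05. Of 7 blood and leukocyte markers, 1 was higher in the proximal and 0 in the distal DA. Their summed linear intensities were 2110 to 2810 in the aorta, 4330 to 5150 in the distal DA and 3370 to 6020 in the proximal DA. Of 5 mesothelial markers, 1 was lower in both parts, against 2.71% of all genes in the proximal and 0.703% in the distal DA.

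All 7 elastic fibre genes had a lower mean in the proximal DA than the aorta had, as did 10951 of the 20804 probe sets. The *FBN2* values of these tissues overlapped. Of the 7 genes, 2 passed the test, fibulin 1 (*FBLN1*) and lysyl oxidase like 3 (*LOXL3*). By the same test, 2.34% of all probe sets were lower there and 3.33% higher. In the distal DA, 1 of 7 was lower than the aorta, *FBLN1*, and 0 were higher, against 0.644% and 0.952% of all probe sets. When both parts of the duct were compared, *FBLN1* alone was lower on the proximal side and 0 were higher, against 0.0913% and 0.159% of all probe sets. At an unadjusted p under 0.05, limma gave 4 lower and 0 higher members for the proximal DA against the aorta (9.75% and 8.39% of the probe sets), 3 lower and 1 higher for the distal DA against the aorta (5.34% and 5.44%), and 4 lower and 0 higher for the proximal against the distal DA (3.36% and 3.95%). The median log2 difference of the 7 genes was -0.43 for the proximal DA against the aorta, -0.17 for the distal DA against the aorta and -0.42 for the proximal against the distal DA, where the medians over all probe sets were -0.02, -0.01 and -0.02. The members and lists were chosen with earlier results of these data known, so these counts describe the genes and test nothing about the list.

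**Figure D1:**
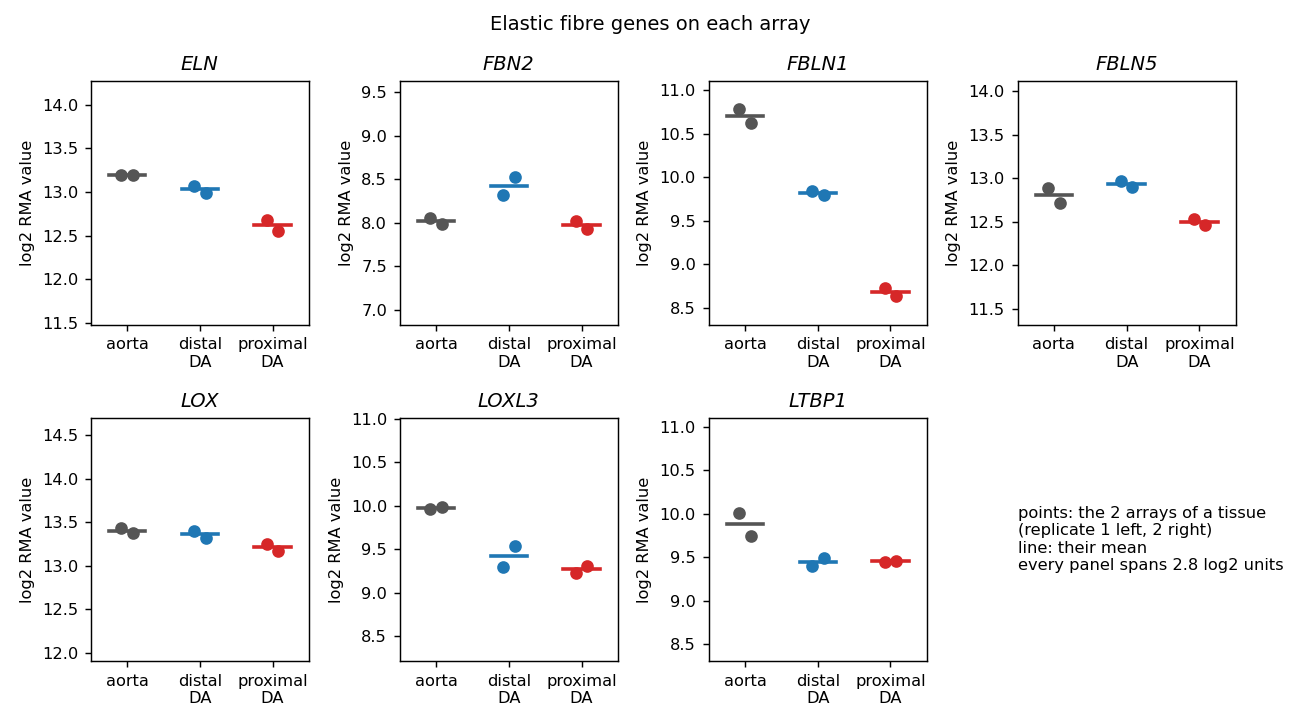
Log2 RMA values (vertical axis, the same span in every panel) of the 7 elastic fibre genes on the 2 arrays of each tissue, with points for arrays and a line for their mean. The steps of *FBLN1* from 10.78 and 10.62 to 9.84 and 9.79 and on to 8.73 and 8.63 are wider than those of the other 6 genes.

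Elastin itself was the core protein of the list. The *ELN* values were 13.20 and 13.20 in the aorta, 13.07 and 12.99 in the distal DA, and 12.68 and 12.55 in the proximal DA. The tissues did not overlap and stood in the order aorta, distal DA, proximal DA, with the wider step between the parts of the duct. Proximal DA and aorta differed by a log2 value of -0.59 (standard error, SE, 0.14, 95% interval -0.90 to -0.27, not adjusted for the number of probe sets), which missed the threshold by limma (adjusted p = 0.0537). The difference also missed it by limma in a fit of only these tissues (adjusted p = 0.122). With quantile or cyclic loess normalization it missed too (adjusted p = 0.0575 and 0.0681 by limma). It passed with eBayes with trend and robust settings (adjusted p = 0.0106) and within the brighter 0.5 of the probe sets (adjusted p = 0.0295), and with 1 array left out the adjusted p was 0.106 to 0.172. The distal DA differed from the aorta by -0.17 (95% interval -0.49 to 0.15, adjusted p = 0.789 by limma), and the proximal from the distal DA by -0.42 (95% interval -0.73 to -0.10, adjusted p = 0.443 by limma). In each of these 3 comparisons the interval left out a 2-fold decrease. The *ELN* probe set lay above 99.6% to 99.8% of the probe sets of an array, close to the array maxima of 14.05 to 14.11, and whether its differences are compressed there was not tested.

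The only measured fibrillin of the list, *FBN2*, encodes fibrillin 2, a microfibril protein known mainly from developing tissue. Its values were 8.06 and 7.99 in the aorta, 8.32 and 8.53 in the distal DA, and 8.02 and 7.93 in the proximal DA. Both distal DA arrays lay above the other 4, and the aorta and the proximal DA overlapped. The distal DA exceeded the aorta by 0.40 (SE 0.15, 95% interval 0.06 to 0.74, adjusted p = 0.349 by limma), and the proximal DA lay below the distal DA by a difference of -0.45 (adjusted p = 0.419 by limma). The proximal DA and the aorta differed by -0.05, with a 95% interval of -0.39 to 0.29.

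Among the fibulins, *FBLN1* differed between all 3 tissues. Fibulin 1 is a calcium-binding glycoprotein that binds elastin, fibronectin and basement membrane proteins. Its values were 10.78 and 10.62 in the aorta, 9.84 and 9.79 in the distal DA, and 8.73 and 8.63 in the proximal DA. No tissue overlapped with another, and each step down was several times the gap between the 2 arrays of a tissue. The proximal DA was 4.06-fold lower than the aorta (log2 difference -2.02, SE 0.14, adjusted p = 0.000542 by limma), a call that held with each of the 6 arrays left out in turn (adjusted p = 0.00207 to 0.0112). The distal DA was 1.85-fold lower than the aorta (-0.89, SE 0.14, adjusted p = 0.030 by limma), and the proximal DA was 2.20-fold lower than the distal DA (-1.14, SE 0.14, adjusted p = 0.0395 by limma). These smaller differences were less secure. That of the distal DA from the aorta did not pass in a fit of only these tissues (adjusted p = 0.0561 by limma), which leaving out a proximal DA array also gives. Nor did it pass without any 1 of the aorta or distal DA arrays, at a log2 difference of -0.97 to -0.81. That between the parts of the duct did not pass without either distal DA array or either proximal DA array (adjusted p = 0.136 to 0.330) or with cyclic loess normalization (adjusted p = 0.0505 by limma), and its log2 difference stayed between -1.19 and -1.09 with an array left out.

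Fibulin 5, the product of *FBLN5*, binds tropoelastin, lysyl oxidase like 1 and cell surface integrins and is needed in mice for normal elastic fibres. The *FBLN5* values were 12.89 and 12.71 in the aorta, 12.97 and 12.90 in the distal DA, and 12.53 and 12.46 in the proximal DA. Both proximal DA arrays lay below the other 4 arrays. The proximal DA differed by -0.31 from the aorta (95% interval -0.64 to 0.03, adjusted p = 0.318 by limma) and by -0.44 from the distal DA (95% interval -0.77 to -0.11, adjusted p = 0.418 by limma). For the distal DA against the aorta the difference was 0.14, with a 95% interval of -0.20 to 0.47.

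The cross-linking enzymes *LOX* and *LOXL3* had different patterns. Lysyl oxidase, encoded by *LOX*, oxidizes lysines of tropoelastin and collagen, and loss of the gene in mice gives aneurysms. The *LOX* values were 13.43 and 13.37 in the aorta, 13.40 and 13.32 in the distal DA, and 13.25 and 13.17 in the proximal DA. The aorta and the distal DA overlapped, and the proximal DA arrays lay lowest, within a total range over the 6 arrays that was narrower than the *ELN* range. The log2 difference of the proximal DA was -0.19 from the aorta (95% interval -0.51 to 0.13, adjusted p = 0.542 by limma) and -0.15 from the distal DA. Like *ELN*, *LOX* lay near the top of the scale, above 99.8% to 99.9% of the probe sets.

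Lysyl oxidase like 3 is a member of the same enzyme family that carries scavenger receptor domains. The *LOXL3* values were 9.96 and 9.99 in the aorta, 9.30 and 9.54 in the distal DA, and 9.23 and 9.31 in the proximal DA. Both parts of the duct lay below the aorta, and the parts overlapped with each other. The proximal DA was 1.63-fold lower than the aorta (log2 difference -0.71, SE 0.15, adjusted p = 0.0358 by limma). This call was lost in a fit of only the proximal DA and the aorta (adjusted p = 0.0664 by limma). Leaving out a distal DA array gives that same fit. The call was also lost without any 1 of the aorta or proximal DA arrays. With an array left out, the log2 difference stayed between -0.75 and -0.67. The distal DA differed by -0.56 (95% interval -0.90 to -0.21), which did not pass (adjusted p = 0.158 by limma), and the parts of the duct differed by -0.15 (95% interval -0.49 to 0.19).

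Latent TGF-beta binding protein 1, encoded by *LTBP1*, holds latent TGF-beta in the matrix and binds fibrillin. Its values were 10.01 and 9.75 in the aorta, 9.40 and 9.49 in the distal DA, and 9.45 and 9.46 in the proximal DA. The aorta lay above both parts of the duct, and the distal DA arrays lay on either side of the proximal DA arrays. Against the aorta, the proximal DA differed by -0.43 (adjusted p = 0.179 by limma) and the distal DA by -0.44 (adjusted p = 0.314 by limma). Between the parts of the duct the difference was 0.01, with a 95% interval of -0.34 to 0.36.

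**Figure D2:**
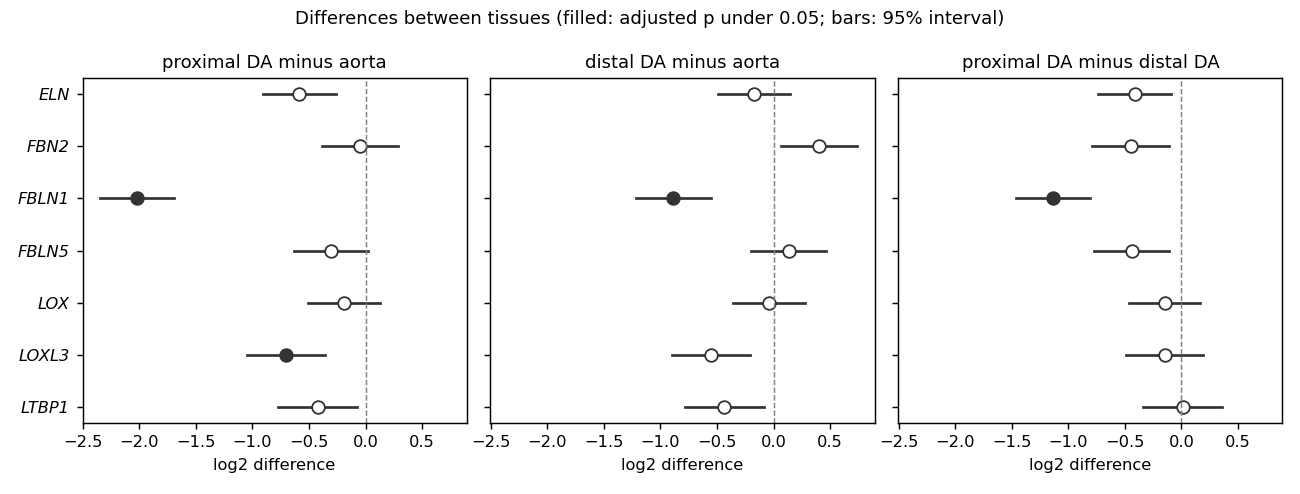
Log2 differences (horizontal axis) of the 7 genes in the 3 comparisons, with bars for the 95% interval of limma and filled points at an adjusted p under 0.05. The filled points are *FBLN1* in each comparison, at -2.02, -0.89 and -1.14, and *LOXL3* in the proximal DA against the aorta, at -0.71.

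The 7 genes thus fell into more than one order of tissues. The means of *ELN*, *FBLN1*, *LOX* and *LOXL3* declined from the aorta to the distal DA to the proximal DA, the means of *FBN2* and *FBLN5* were highest in the distal DA, and *LTBP1* was highest in the aorta with both parts of the duct nearly level. Of the neighbours in these orders, only those of *FBLN1* differed beyond their spread by the test. In the proximal DA, 6 of the 7 genes had both arrays below both aorta arrays and 0 had both above, patterns that 23.1% and 19.0% of all probe sets had. Against the distal DA arrays, 5 of 7 lay below and 0 above, as did 18.0% and 14.7% of all probe sets. In the distal DA, 4 of 7 lay below both aorta arrays and 2 above, against 19.8% and 19.9% of all probe sets.

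**Figure D3:**
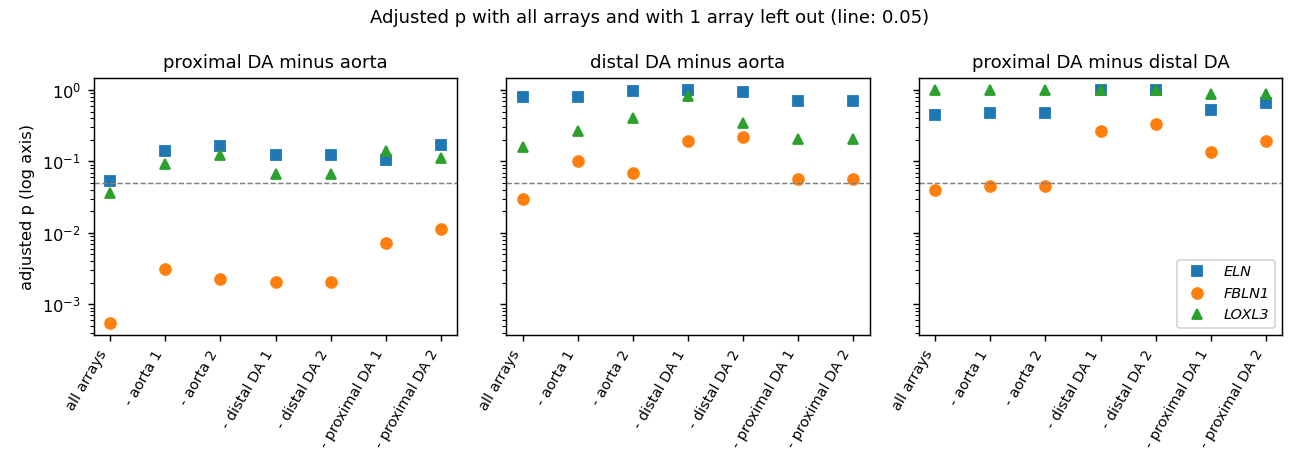
Adjusted p-values (vertical log axis) of *ELN*, *FBLN1* and *LOXL3* in the 3 comparisons with all arrays and with each array left out in turn, and the threshold of 0.05 as a dashed line. For the proximal DA against the aorta, *FBLN1* stayed below the line with 0.00207 to 0.0112, while *LOXL3* rose above it to 0.0664 to 0.138.

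The genes whose values followed the members most closely over the 6 arrays were taken from 6822 genes brighter than the array median. The 6 arrays are 3 pairs of like tissue, and the correlations are given as a description. Nearest to *ELN* were *HPSE2* (Pearson's r = 0.996), *PITPNM3* (0.995), *MBLAC2* (0.990), *DPH7* (0.990) and *CPXM2* (0.989). Such a correlation does not measure the size of a difference. *DPH7* was nearly level, with means of 7.57, 7.52 and 7.42 in the aorta, distal DA and proximal DA. Heparanase 2, *HPSE2*, had means of 10.49, 9.71 and 7.53 in the aorta, distal DA and proximal DA. Nearest to *FBLN1* were *GOPC* (r = 0.999), *SESN1* (0.999), *NCAM1* (0.998), *HEY1* (0.997) and *CILP* (0.997). The cell adhesion gene *NCAM1* had means of 11.59, 10.72 and 9.72 in the aorta, distal DA and proximal DA, and the cartilage matrix gene *CILP* had means of 10.88, 10.02 and 8.92. Nearest to *LOXL3* were *TPST1* (r = 0.999), *ANK2* (0.997), *PARP1* (0.994), *OGFOD1* (0.993) and *TSPAN17* (0.991). Among the members, *ELN* correlated with *FBLN1* at 0.975 and with *LOX* at 0.956, and *FBN2* with *LTBP1* at -0.31, each over 6 arrays that share tissue.

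Some markers of fibroblasts and the adventitia moved beside *FBLN1*. Of 10 measured, 4 were lower and 2 higher when the proximal DA was set against the aorta, where 2.71% and 4.58% of all genes were so. Lumican, *LUM*, a small proteoglycan of connective tissue, was 12.45 and 12.26 in the aorta, 11.50 and 11.60 in the distal DA, and 10.74 and 10.57 in the proximal DA. From aorta to proximal DA it differed by -1.70 (adjusted p = 0.00127 by limma). Dermatopontin, *DPT*, differed by -1.72, the chemokine *CXCL12* by -1.79 and the growth factor receptor *PDGFRA* by -0.85, while *PI16* was higher by 2.39 and *FAP* by 1.07. The collagen genes *COL1A1* and *COL1A2*, with *OGN* and *TCF21*, did not pass, at differences of 0.16, -0.06, -0.43 and 0.21. *COL1A1* was the brightest of the 10 in each tissue and so weighs most in a sum. Summed as linear intensities, the 10 markers reached 31400 to 35700 in the aorta. They reached 30400 to 30900 in the distal DA and 26300 to 30000 in the proximal DA. The 7 smooth muscle markers reached 8250 to 8900, 20100 to 20800 and 23800 to 25400 in the same order. The part of either cell type in the elastic fibre values was not tested.

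Other genes of the pathway went both ways. Of 64 genes on 5 lists, 39 had a probe set of their own. Against the aorta, 3 of the 39 rose and 5 fell in the proximal DA, where 4.58% and 2.71% of all genes were higher and lower. In the distal DA, 4 were higher and 1 lower, against 1.30% and 0.703%. Between the parts of the duct, 0 were higher and 0 lower by limma, against 0.234% and 0.139% of all genes. At an unadjusted p under 0.05, limma gave 6 higher and 12 lower for the proximal DA against the aorta (8.39% and 9.75% of all probe sets). For the distal DA against the aorta it gave 7 and 10 (5.44% and 5.34%). Between the parts of the duct it gave 2 and 7 (3.95% and 3.36%). These unadjusted shares are over all probe sets rather than over genes, for which they were not computed. The medians of the 39 log2 differences were -0.04, -0.05 and -0.02 for these 3 comparisons. With 1 array left out, 5 to 8 genes passed in the proximal DA, with the lowest count, 5, without proximal DA replicate 2. In the distal DA, 2 passed when aorta replicate 1 was left out and 1 when aorta replicate 2 was, while leaving out distal DA replicate 1 left 0 and leaving out distal DA replicate 2 left 1.

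Of 13 microfibril and elastic fibre associated genes, 3 were lower and 1 higher in the proximal DA, where 2.71% and 4.58% of all genes were so. Nephronectin, *NPNT*, an integrin ligand of basement membranes, was 9.92 and 9.84 in the aorta, 9.39 and 9.61 in the distal DA, and 8.23 and 8.73 in the proximal DA, which is -1.40 from the aorta (adjusted p = 0.00749 by limma). Hemicentin 1, *HMCN1*, a large relative of the fibulins, differed by -1.23 (adjusted p = 0.00308) and fibrillin 3, *FBN3*, by -0.94 (adjusted p = 0.0128), both by limma. A second *FBN3* probe set, of lower intensity, gave -1.16. The *FBN3* call was lost without aorta replicate 2 or proximal DA replicate 2 (highest adjusted p = 0.0805 by limma), while *NPNT* and *HMCN1* passed with any 1 array left out. In the distal DA, these 3 genes differed from the aorta by -0.38, -0.42 and -0.38, and none of the 3 passed.

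Multimerin 2, *MMRN2*, a relative of the EMILIN proteins that is made by endothelium, was higher in both parts of the duct. Its values were 6.80 and 6.92 in the aorta, 8.61 and 8.25 in the distal DA, and 8.59 and 8.88 in the proximal DA. The log2 difference was 1.88 in the proximal DA (adjusted p = 0.00172) and 1.57 in the distal DA (adjusted p = 0.00962), by limma, and the latter was lost without distal DA replicate 1 (adjusted p = 0.0861). The endothelial markers, summed, were 2600 to 2650 in the aorta, 4590 to 4680 in the distal DA and 5110 to 5680 in the proximal DA, and their part in the *MMRN2* values was not tested. The microfibril genes *MFAP5*, *LTBP2* and *EFEMP1* (fibulin 3) did not pass in either part. Their differences from the aorta were 0.15, 0.30 and 0.27 in the proximal DA and 0.13, 0.38 and 0.54 in the distal DA.

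Of 9 genes of the other lysyl oxidases and of elastin handling, 1 passed, higher in both parts of the duct. Of all genes, 4.58% were higher in the proximal and 1.30% in the distal DA. The lysyl hydroxylase *PLOD2*, which modifies collagen rather than elastin, was 8.31 and 8.05 in the aorta, 9.44 and 9.56 in the distal DA, and 9.80 and 10.08 in the proximal DA. It exceeded the aorta by 1.76 in the proximal DA (adjusted p = 0.00164) and by 1.32 in the distal DA (adjusted p = 0.0136), by limma. The distal DA call was lost without aorta replicate 2, distal DA replicate 1 or distal DA replicate 2. The lysyl oxidase *LOXL2* differed from the aorta by 0.01 on the proximal side and by -0.28 on the distal side.

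The ADAMTS and ADAMTS-like proteins, several of which are known to bind fibrillin in mammals, held changes in both directions. Of 7 measured, *ADAMTSL3* was lower in the proximal DA (log2 difference -1.33, adjusted p = 0.00431) and *ADAMTSL1* higher (1.10, adjusted p = 0.0120), by limma. Of all genes, 2.71% were lower and 4.58% higher there, and 0.703% and 1.30% in the distal DA. A second *ADAMTSL1* probe set, of lower intensity, gave 0.80 in the proximal DA (adjusted p = 0.0447 by limma). In the distal DA it gave 0.91 and did not pass (adjusted p = 0.0598 by limma). The *ADAMTSL3* values were 9.58 and 9.38 in the aorta, 8.93 and 9.11 in the distal DA, and 8.27 and 8.04 in the proximal DA, with no overlap. In the distal DA, *ADAMTSL1* was higher by 1.17 and *ADAMTS17* by 0.95 (adjusted p = 0.0225 and 0.0198 by limma). Both of these were lost without any 1 of the aorta or distal DA arrays, and *ADAMTSL1* in the proximal DA without proximal DA replicate 2 (adjusted p = 0.0778).

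Of 6 proteases known to degrade elastin or found with it, 0 passed in any comparison by limma. Of all genes, 2.71% were lower and 4.58% higher in the proximal DA against the aorta. For the distal DA against the aorta these shares were 0.703% and 1.30%, and between the parts of the duct 0.139% and 0.234%. *MMP13* and *MMP7* lay near or below the lower quartile of each array, and whether a change could be seen there was not tested. Cathepsin B, *CTSB*, differed from the aorta by a log2 value of -0.43 on the proximal side (adjusted p = 0.161 by limma) and -0.54 on the distal side (adjusted p = 0.165 by limma). The gelatinase *MMP2* differed by -0.50 between the proximal and the distal DA (adjusted p = 0.407 by limma). Of 4 TGF-beta ligands and receptors, 1 was lower than the aorta in both parts, against 2.71% and 0.703% of all genes. This was the accessory receptor betaglycan, *TGFBR3*. Its values were 11.48 and 11.24 in the aorta, 10.36 and 10.54 in the distal DA, and 10.41 and 10.61 in the proximal DA. The differences were -0.85 (adjusted p = 0.0247) in the proximal and -0.91 (adjusted p = 0.0434) in the distal DA, by limma. The distal DA call was lost without any 1 of the aorta or distal DA arrays. It was also lost without a proximal DA array, which leaves a fit of only the distal DA and the aorta. The proximal DA call was lost without aorta replicate 1, proximal DA replicate 1 or proximal DA replicate 2. With an array left out, the log2 differences were -1.03 to -0.79 in the distal and -0.97 to -0.73 in the proximal DA. The other 3 genes did not pass. *TGFB2* differed from the aorta by -0.61 in the proximal and -0.64 in the distal DA, and *TGFB3* by -0.365 and -0.36. A second *TGFB3* probe set, of lower intensity, gave -0.69 and -0.43. *TGFBR1* differed by -0.25 and -0.01, with its distal DA arrays inside the range of the aorta arrays.

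**Figure D4:**
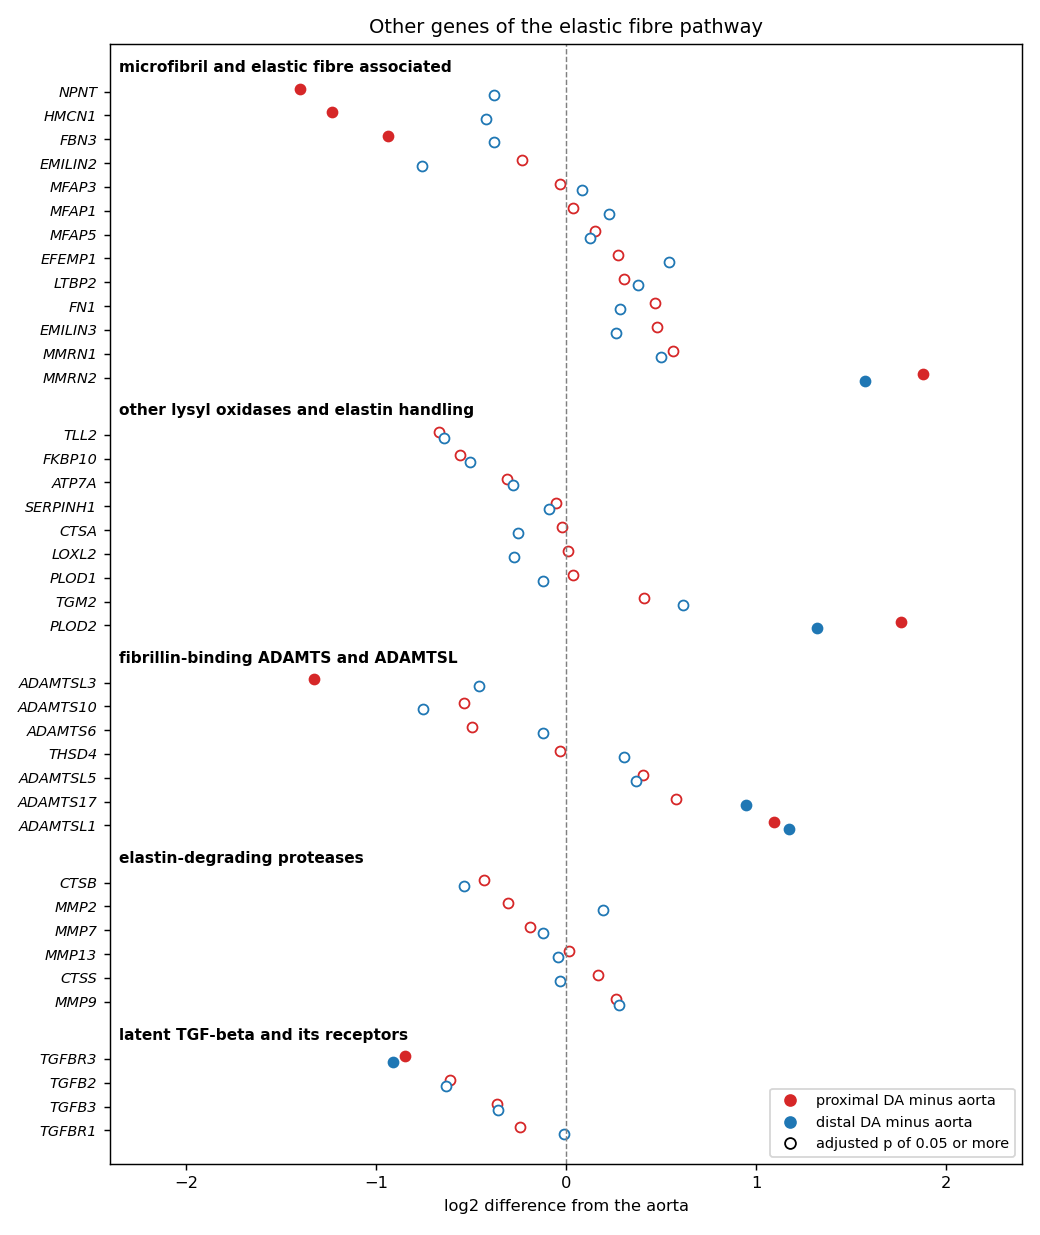
Log2 differences from the aorta (horizontal axis) of the 39 other genes of the pathway, by list and part of the duct, with filled points at an adjusted p under 0.05. The filled points run from *NPNT* at -1.40 to *MMRN2* at 1.88 in the proximal DA, and no elastin-degrading protease is filled.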

How the data were processed

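RNA of the aorta, the distal DA and the proximal DA was hybridized to Affymetrix Chicken Gene 1.0 ST arrays, 2 per tissue. The deposited values are on the log2 scale, made by the authors with RMA (background correction, quantile normalization across arrays, summary per probe set) in oligo and rounded to 2 decimals. They carry no detection call, and with so few arrays the precision is low. The genome build of the array annotation was not used. Of 20804 probe sets, 12300 had 1 symbol, 256 several and 8248 none in the platform annotation. The values were fitted as deposited with limma 3.58.1 in R 4.3.3 (tissue means, eBayes without trend, 3 residual and 4.40 prior degrees of freedom, tested on simulated data), and p-values were adjusted over all probe sets within a comparison. The median SE of a difference was 0.167. Intervals are 95% and not adjusted. Pathway and marker genes were represented by their brightest probe set. Named were all members, up to 6 passing genes per pathway list or else those with the smallest p, and the 5 genes nearest to *ELN* and to each passing member. *MFAP5*, *LTBP2*, *EFEMP1*, *LOXL2*, *MMP7*, *MMP13*, *TGFB2*, *TGFB3* and *TGFBR1* and the fibroblast markers were named after their values were seen. The members and lists were chosen with earlier results of these data known. As alternatives, only the tissues compared were fitted, eBayes was run with trend and robust settings, values were normalized again (quantile, cyclic loess), dim probe sets were removed (the brighter 0.5 kept), a 2-fold minimum was set, each array was left out, and the replicate number entered as a block.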

Additional observations from a re-analysis of the deposited data

Results flagged for a closer look

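The difference of *FBLN1* from the aorta was larger in the proximal DA. The direct comparison of both parts of the duct gave a log2 difference of -1.135 (adjusted p = 0.0395 by limma), with both proximal DA arrays below both distal DA arrays. It did not pass without any 1 of these 4 arrays, nor with cyclic loess normalization (adjusted p = 0.0505 by limma).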

How the results depend on the processing

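No member difference that passed changed direction under any alternative, and *FBLN1* in the proximal DA against the aorta passed under all of them. The number of members that passed in the proximal DA against the aorta (2) was 1 in a fit of only these tissues, with a 2-fold minimum, and with any 1 array left out (1 to 1). For the distal DA against the aorta (1), it was 0 in a fit of only these tissues, with a 2-fold minimum, and with any 1 array left out (0 to 0). For the proximal against the distal DA (1), it was 0 with cyclic loess normalization and with the replicate block, and 0 to 1 with 1 array left out.

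A difference near 0 changed sign: *LTBP1* between the parts of the duct was -0.033 with quantile normalization and -0.035 to 0.055 with 1 array left out. The difference of *LOX* in the distal DA against the aorta was -0.08 to 0 with 1 array left out, and did not change sign. Of the 39 pathway genes, 5 passed in the distal DA against the aorta, 3 with a 2-fold minimum, 0 to 4 with 1 array left out and 4 to 7 under the other alternatives. In the proximal DA against the aorta 8 passed, 6 with a 2-fold minimum, 5 to 8 with 1 array left out and 8 to 11 under the other alternatives, and 1 passed between the parts of the duct within the brighter 0.5 of the probe sets.

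Over all probe sets, the proximal DA and the aorta differed at 1178, at 689 with a 2-fold minimum and at 452 to 1070 with 1 array left out. The distal DA and the aorta differed at 332, and at 52 to 250 with 1 array left out. The parts of the duct differed at 52, at 80 with trend and robust settings, at 107 within the brighter 0.5, at 0 with the replicate block, and at 0 to 55 with 1 array left out. The deviations of same-numbered arrays correlated at 0.199 for the aorta and distal DA, at -0.034 for the aorta and proximal DA and at 0.321 for the parts of the duct, so the numbers were not taken as pairs. The replicate block lost *FBLN1* between the parts of the duct (adjusted p = 0.068 by limma) and changed no other member call. A tissue left with a single array was taken to have the spread of the others. Leaving out an array of the tissue not compared gives the fit of only the tissues compared, so these fits are not separate checks. Each fit with an array left out also has fewer residual degrees of freedom. No spread between embryos can be read from these pools, and the causes of these shifts were not tested.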
